A study of Homo sapiens with 6 samples.

Results

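The oxygen-sensing pathway of the hypoxia-inducible factors (HIF) was described in gefitinib-treated PC9 cells through 40 named genes of the 58825 in the gene table. The genes were taken by symbol and comprise HIF subunits, the enzymes and adaptors that sense oxygen or restrain HIF, and HIF targets outside glycolysis. PC9 is a human lung adenocarcinoma cell line with an activating EGFR mutation, and gefitinib inhibits the EGFR kinase. The G group was PC9 overexpressing the G allele of FOXM1 variant rs3742076 (3 libraries), and the A group was PC9 overexpressing the A allele (3 libraries). Cells of all 6 libraries had been given gefitinib at 100 nM for 24 h, and no label names low oxygen as a treatment. FOXM1 is a transcription factor of the cell division programme. The vector, its promoter, the removal of endogenous FOXM1 and whether a line was 1 clone could not be read from the labels, and no library without FOXM1 overexpression or without gefitinib was analysed here. Poly(A) RNA was measured as FPKM (fragments per kilobase of transcript, relative to all mapped fragments).

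HIF is a dimer of an oxygen-labile alpha subunit, HIF1A or EPAS1, and the stable partner ARNT. With oxygen present, prolyl hydroxylases of the EGLN family mark the alpha subunit, VHL recognises the mark and directs the subunit to degradation, and HIF1AN blocks contact with coactivators. Most of this control acts on the protein, which was not measured here, while the targets are controlled as mRNAs. In lung adenocarcinoma and other carcinomas the targets include genes for acid export, vessel growth, mitochondrial remodelling, collagen processing and lipid storage.

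HIF binds DNA at a short core, searched here as ACGTG or GCGTG on either strand, the reverse complements being CACGT and CACGC. Promoters of 300 bases, from 250 before to 50 after the start of transcription, came from RefSeq (GRCh38.p14). The 5 promoters printed here belong to the target genes with the smallest p-values for G against A among those with a promoter entry, and are given so that the core can be seen in its sequence. They are written 5′ to 3′ on the strand of the gene, and capitals mark the core. The regions are chr14:52695509-52695808 on the minus strand for ERO1A, chr3:4979187-4979486 on the plus strand for BHLHE40, chr10:73096817-73097116 on the minus strand for P4HA1, chr10:72273674-72273973 on the plus strand for DDIT4 and chr9:35673678-35673977 on the plus strand for CA9.
ERO1A: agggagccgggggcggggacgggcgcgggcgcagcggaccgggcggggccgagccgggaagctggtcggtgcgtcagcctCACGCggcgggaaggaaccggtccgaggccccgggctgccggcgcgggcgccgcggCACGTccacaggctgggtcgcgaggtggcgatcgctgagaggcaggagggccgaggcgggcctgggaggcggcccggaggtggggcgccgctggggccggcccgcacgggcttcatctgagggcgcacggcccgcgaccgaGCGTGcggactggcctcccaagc
BHLHE40: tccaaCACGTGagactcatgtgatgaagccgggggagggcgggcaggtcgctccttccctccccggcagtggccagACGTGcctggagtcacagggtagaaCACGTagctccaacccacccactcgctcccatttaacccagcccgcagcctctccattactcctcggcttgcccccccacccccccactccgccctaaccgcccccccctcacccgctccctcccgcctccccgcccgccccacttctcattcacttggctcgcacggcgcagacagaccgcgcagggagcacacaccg
P4HA1: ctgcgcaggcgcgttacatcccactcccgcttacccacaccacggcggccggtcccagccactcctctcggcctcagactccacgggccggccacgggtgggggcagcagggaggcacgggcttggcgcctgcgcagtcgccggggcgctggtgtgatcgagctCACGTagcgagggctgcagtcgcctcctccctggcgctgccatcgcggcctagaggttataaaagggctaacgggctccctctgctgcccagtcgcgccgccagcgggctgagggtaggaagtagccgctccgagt
DDIT4: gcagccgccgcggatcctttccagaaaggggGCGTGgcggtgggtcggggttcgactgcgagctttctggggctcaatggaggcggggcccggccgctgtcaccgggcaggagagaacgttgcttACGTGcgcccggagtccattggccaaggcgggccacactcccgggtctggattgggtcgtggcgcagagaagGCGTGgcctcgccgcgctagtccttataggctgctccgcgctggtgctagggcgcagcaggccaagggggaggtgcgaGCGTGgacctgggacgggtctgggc
CA9: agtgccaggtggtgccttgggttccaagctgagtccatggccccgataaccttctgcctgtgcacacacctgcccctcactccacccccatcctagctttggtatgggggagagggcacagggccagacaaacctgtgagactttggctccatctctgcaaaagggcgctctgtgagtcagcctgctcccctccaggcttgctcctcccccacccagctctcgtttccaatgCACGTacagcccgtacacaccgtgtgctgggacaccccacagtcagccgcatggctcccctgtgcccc

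The CA9 promoter held 1 core, 18 bases before the start, and the P4HA1 promoter held 1, 86 bases before it. ERO1A had cores 170 and 114 bases before and 28 bases after the start. DDIT4 had 4 cores, and BHLHE40 had 4, of which the pair at 245 and 244 bases before the start overlaps in a palindrome that was counted once on each strand. Of the 40 genes, 34 had a promoter entry and 26 of these (76.5%) held the core, against 64.0% of the 8894 promoters of all tested genes and 48.4% of all 35116 promoters. The core was present in 14 of the 16 promoters of genes with an unadjusted p under 0.05 for G against A and in 10 of the 15 promoters of the other tested genes of the list. BNIP3L, HILPDA, LOXL2, NDRG1, VEGFA and VHL had no entry. A match describes letters in this window and is no evidence of binding.

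Of the 40 genes, 37 had at least 1 FPKM in at least 3 libraries and were tested with all 12787 such genes by limma-trend on log2(FPKM + 1). Every log2 change is the G mean minus the A mean of those values. For genes of low level the added 1 makes it smaller than the true change. The log2 change was above 0 for 34 of the 37 and below 0 for SLC16A3, INSIG2 and MIF, where 55.1% of all tested genes were above 0. With median-ratio scaling the count above 0 was 32, because HIF1A and CITED2 turned slightly negative. No gene of the list passed a Benjamini-Hochberg adjusted p of 0.05, a threshold that 0.109% of all tested genes passed (14 genes). Of all tested genes 0.0313% passed it as higher in G and 0.0782% as lower, 4 and 10 genes, or 7 and 8 genes with equal sums of FPKM. The smallest adjusted p was 0.0686, for ERO1A. Directions below are therefore given as values and none is a call.

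At an unadjusted limma p under 0.05 stood 21 of the 37 tested genes, against 17.3% of all tested genes. Of the 21, 19 were higher in G and 2 were lower, where 10.5% of all tested genes were higher and 6.82% lower. The lowest G library lay above the highest A library for 20 of the 37, against 15.4% of all tested genes, and the reverse held for none of them, against 9.57%. The median log2 change was 0.21 over the 37 genes and 0.02 over all tested genes. All 21 were among the 29 tested targets and none among the 8 subunits and sensors, and the difference between those 2 sets was not tested. LOX passed the filter on low values through its G libraries alone and ANGPTL4 through 3 G libraries and 1 A library. With no filter, 22 of 40 stood under 0.05, against 10.1% of 30736 genes. With at least 1 FPKM required in all 6 libraries, 20 of 35 did, against 18.4% of 11384 genes.

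**Figure D1:**
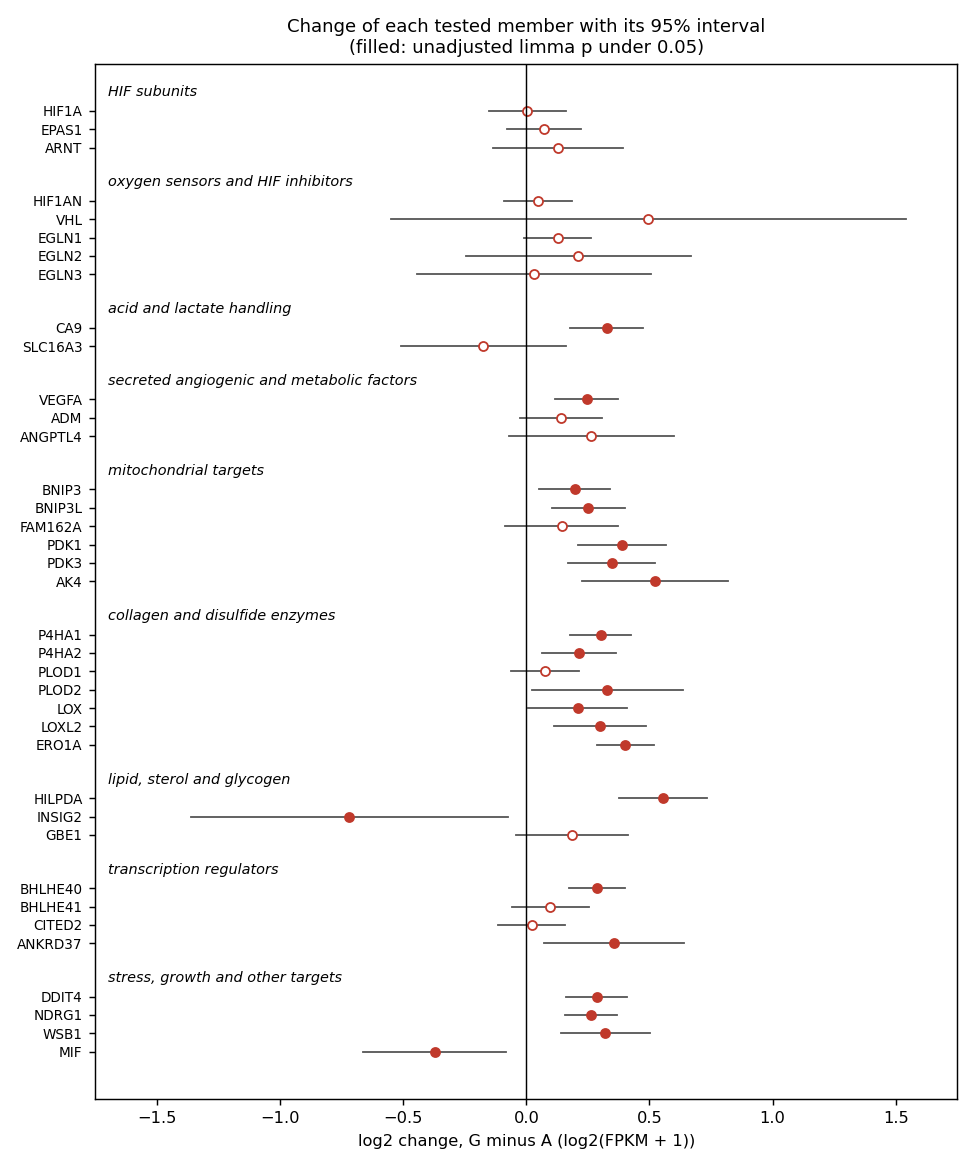
Log2 change (G minus A, on log2(FPKM + 1)) of the 37 tested genes by role, with the 95% interval of limma; filled points have an unadjusted p under 0.05. The subunits and sensors at the top lie near 0 or have wide intervals, while 19 of the 29 targets are filled to the right of 0 and INSIG2 and MIF are filled to its left.

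The pattern was shared by the libraries of each allele. Of the 37 tested genes, 31, 33 and 28 lay above their own 6-library mean in G replicates 1, 2 and 3, against 6, 8 and 6 in A replicates 1, 2 and 3. The median deviation from that mean was 0.11, 0.11 and 0.13 on the log2 scale in the G libraries, against -0.10, -0.13 and -0.11 in the A libraries. No library of either group stood apart from the others of its allele by this measure. Over all 12787 tested genes, 6885, 7166 and 6976 lay above their own mean in the G libraries, against 6468, 5879 and 6102 in A. The medians there were 0.014, 0.021 and 0.014 in G, against 0.002, -0.016 and -0.007 in A. Each mean covers both alleles, so high counts in G and low counts in A are not separate results. FOXM1 itself was at 14.6, 14.3 and 13.96 FPKM in the G libraries, against 25.5, 10.5 and 10.1 FPKM in the A libraries, so that A replicate 1 was the highest. Its log2 change was 0.03 (limma adjusted p = 0.97), and the FPKM does not separate the introduced from the endogenous mRNA.

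**Figure D2:**
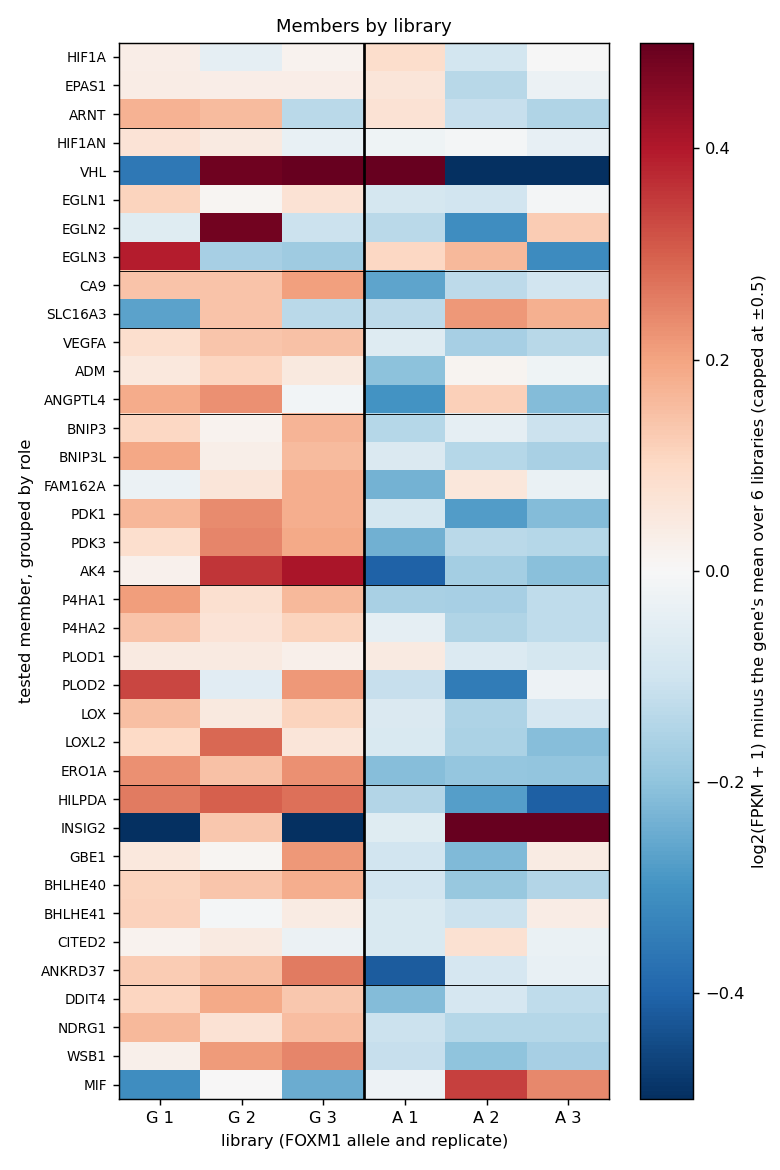
Deviation of each tested gene (rows, by role) from its own mean over the 6 libraries (columns, G left of A), on log2(FPKM + 1), with colours capped at 0.5 in either direction. Red fills most of the G columns and blue most of the A columns, with VHL and INSIG2 as the rows of widest range.

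Mitochondrial transcripts made up 5.17%, 4.69% and 4.93% of the fragments in the G libraries, against 6.06%, 6.27% and 6.16% in the A libraries, and the groups did not overlap. Scaled to nuclear fragments instead, 20 of the 37 genes stood at an unadjusted limma p under 0.05, against 17.2% of all tested genes. The median log2 change of the 37 was then 0.20, against 0.009 over all tested genes. Between 12700 and 12858 genes reached 1 FPKM in the G libraries and between 12451 and 12548 in the A libraries. Of the epithelial markers all 7 were tested, with summed levels of 2682 to 2865 FPKM in G and 2792 to 3435 FPKM in A libraries. None of the 7 passed the adjusted threshold, but 2 stood at an unadjusted p under 0.05, both lower in G, against 6.82% of all tested genes. The groups did not overlap for 3, all lower in G, against 9.57% of all tested genes. KRT7 averaged 368.5 FPKM in G and 445.8 FPKM in A (log2 change -0.28, limma adjusted p = 0.182), and KRT8 averaged 330.3 FPKM in G and 364.0 FPKM in A (log2 change -0.14). The third without overlap was KRT18, at 491.0 FPKM in G and 593.3 FPKM in A on average. KRT19 (1396 FPKM in G, 1479 FPKM in A), EPCAM (114.8 FPKM in G, 114.6 FPKM in A), CDH1 and CLDN4 overlapped. The markers did not share a direction, as 3 of the 7 had a log2 change above 0 and 4 below. In the authors' deposited table the log2 fold of G over A was 0.15 for CDH1 and 0.57 for CLDN4. The part of these epithelial markers in the values of the HIF targets was not tested. None of the 4 lung lineage markers passed the filter (NKX2-1 averaged 0.13 FPKM in G and 0.036 FPKM in A), so the lung origin in the labels is not seen in these defining genes. None of 5 endothelial markers, 1 of 5 fibroblast markers (COL1A1, 1.97 FPKM in G and 1.71 FPKM in A) and 2 of 5 leukocyte markers (CD68 and CSF1R) passed it. Leukocyte markers summed to 44.7 to 57.5 FPKM in G and 43.6 to 51.3 FPKM in A libraries. Most of this sum was CD68 (42.1 FPKM in G, 39.6 FPKM in A), with CSF1R as the other tested marker. The defining PTPRC averaged 0.018 FPKM in G and 0.0018 FPKM in A. In bulk RNA, fewer cells of a kind and less RNA per cell cannot be told apart.

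The HIF subunits had close levels in both alleles. HIF1A (ENSG00000100644, chromosome 14, 61695513 to 61748259), the ubiquitous alpha subunit, was at 13.8, 13.1 and 13.7 FPKM in the G libraries, against 14.4, 12.6 and 13.5 FPKM in the A libraries. The log2 change of HIF1A was 0.00, and its 95% interval ran from -0.15 to 0.16, which limits the size of a difference without showing equality. EPAS1 (chromosome 2, 46293667 to 46386697), the alpha subunit also called HIF-2-alpha, was the more abundant of the alpha subunits, at 36.7, 36.6 and 36.6 FPKM in G, against 37.3, 32.4 and 35.0 FPKM in A. Its interval was -0.08 to 0.22. ARNT, the shared partner, was at 9.60, 9.47 and 7.55 FPKM in G, against 8.87, 7.68 and 7.47 FPKM in A, and the groups overlapped for all 3 subunits.

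The oxygen sensors and HIF inhibitors were likewise without a call. EGLN1 (chromosome 1, 231363751 to 231425044), the main HIF prolyl hydroxylase, was at 15.6, 14.5 and 15.2 FPKM in G, against 13.5, 13.4 and 14.3 FPKM in A. It was the only sensor or subunit whose groups did not overlap, by a narrow gap, with a log2 change of 0.13 (limma adjusted p = 0.316). HIF1AN, the asparaginyl hydroxylase of the alpha subunits, had the narrowest range of the 37 genes. It ran from 7.06 to 7.68 FPKM in G and from 7.05 to 7.23 FPKM in A. HIF1AN shares 325 exon bases with NDUFB8 on the opposite strand, which averaged 30.1 FPKM over the 6 libraries. The part of NDUFB8 in the HIF1AN values was not tested.

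EGLN3, a prolyl hydroxylase that is itself a HIF target, was at 23.2, 15.4 and 15.3 FPKM in G, against 18.8, 19.6 and 13.8 FPKM in A. The groups overlapped, and the log2 change of 0.03 turned negative without A replicate 3 (-0.12) or without G replicate 1 (-0.16). EGLN2, the remaining prolyl hydroxylase, was at 5.49, 8.45 and 5.28 FPKM in G, against 5.16, 4.44 and 6.39 FPKM in A. It shares 2012 exon bases with the readthrough gene RAB4B-EGLN2 on the same strand, so its value depends on how fragments were divided between them. RAB4B-EGLN2 averaged only 0.62 FPKM over the 6 libraries.

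VHL (chromosome 3, 10141008 to 10152220), the substrate receptor of the ligase that degrades the alpha subunits, varied most of all 37 genes, with a 3.00-fold range. It was at 5.46, 10.6 and 11.7 FPKM in G, against 11.9, 3.97 and 4.28 FPKM in A. G replicate 1 was the low library of its allele and A replicate 1 the high one of the other. The interval around the VHL log2 change of 0.49 ran from -0.55 to 1.54. Without A replicate 1, the library with the highest FOXM1, it was 0.94 (limma adjusted p = 0.187).

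**Figure D3:**
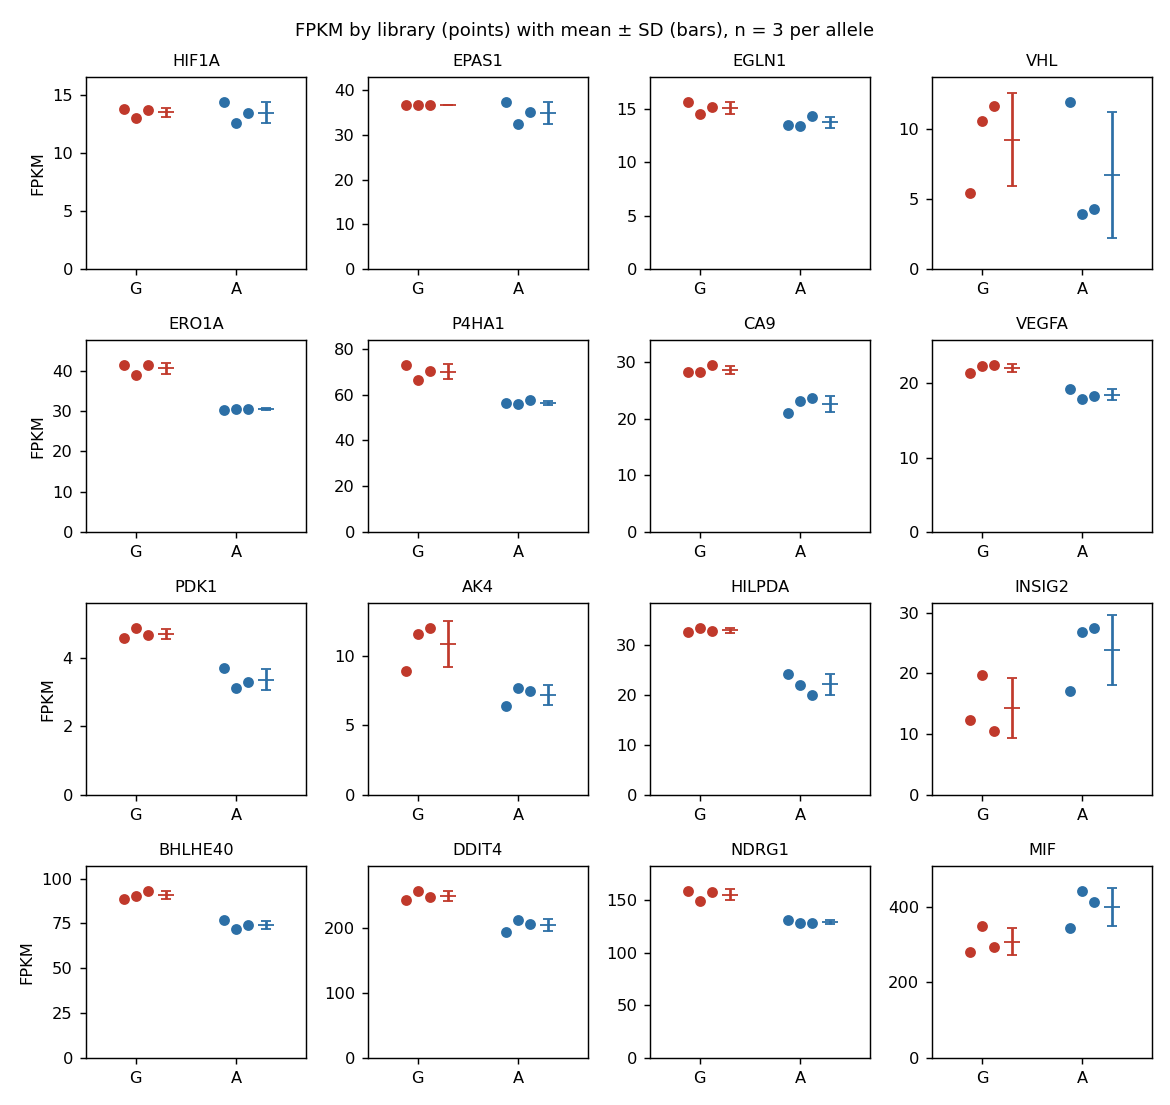
FPKM of 16 genes in each library (points), with the mean ± SD of the 3 libraries per allele (bars), G left of A, on linear axes that start at 0. The targets ERO1A, P4HA1, CA9, VEGFA, PDK1, AK4, HILPDA, BHLHE40, DDIT4 and NDRG1 have every G library above every A library, while HIF1A, EPAS1, VHL, INSIG2 and MIF overlap.

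Among the genes of acid and lactate handling, CA9 (chromosome 9, 35673918 to 35681159), a cell-surface carbonic anhydrase and a common histological marker of hypoxia, was at 28.1, 28.2 and 29.4 FPKM in G, against 21.0, 23.2 and 23.7 FPKM in A. All G libraries lay above all A libraries. The log2 change was 0.33 ± 0.061 (SE; limma adjusted p = 0.159). CA9 shares 643 exon bases with ARHGEF39 on the opposite strand, which averaged 2.18 FPKM. CA12, a related enzyme, averaged only 0.35 FPKM in G and 0.25 FPKM in A and was not tested. SLC16A3, the lactate exporter MCT4, went the other way with overlapping groups. It was at 10.5, 14.4 and 11.7 FPKM in G, against 11.7, 15.2 and 14.7 FPKM in A (log2 change -0.17, limma adjusted p = 0.543). SLC16A3 shares 482 exon bases with CSNK1D on the opposite strand, which averaged 13.6 FPKM.

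Of the secreted factors, VEGFA (chromosome 6, 43770184 to 43786487), the main growth factor of blood vessels, was at 21.4, 22.3 and 22.4 FPKM in G, against 19.3, 17.8 and 18.2 FPKM in A. The groups did not overlap, and the log2 change was 0.24 ± 0.053 (SE; limma adjusted p = 0.165). ADM, which encodes the vasodilator peptide adrenomedullin, was at 48.1, 50.0 and 47.9 FPKM in G, against 40.1, 46.8 and 45.6 FPKM in A. The ADM groups did not overlap either, but the gap was small and the limma adjusted p was 0.35. ANGPTL4, an inhibitor of lipoprotein lipase, was near the filter at 1.52, 1.6 and 1.2 FPKM in G, against 0.804, 1.41 and 0.914 FPKM in A.

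The mitochondrial targets had log2 changes above 0 in 6 of 6, with 5 at an unadjusted p under 0.05, against 55.1% and 17.3% of all tested genes. AK4 (chromosome 1, 65147549 to 65232145), an adenylate kinase of the mitochondrial matrix, was at 8.93, 11.5 and 12 FPKM in G, against 6.40, 7.70 and 7.46 FPKM in A. The lowest library was A replicate 1 and the lowest of the G libraries was replicate 1, and the groups did not overlap. The log2 change of 0.52 ± 0.12 (SE; limma adjusted p = 0.184) was the highest of this group.

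The pyruvate dehydrogenase kinases, which hold back entry of pyruvate into the citric acid cycle, were low in level. PDK1 was at 4.58, 4.86 and 4.66 FPKM in G, against 3.69, 3.11 and 3.29 FPKM in A (log2 change 0.39, limma adjusted p = 0.159). PDK3 was at 4.34, 4.97 and 4.75 FPKM in G, against 3.26, 3.59 and 3.56 FPKM in A (log2 change 0.35, limma adjusted p = 0.165). Neither gene's groups overlapped.

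BNIP3 and BNIP3L are receptors for the removal of mitochondria by autophagy. BNIP3 was at 31.3, 29.5 and 32.8 FPKM in G, against 26.3, 28.2 and 26.9 FPKM in A (log2 change 0.20, adjusted p = 0.206). BNIP3L was at 49.5, 44.0 and 48.2 FPKM in G, against 41.0, 38.9 and 38.4 FPKM in A (log2 change 0.25, adjusted p = 0.184). Both were without overlap. FAM162A, a mitochondrial protein linked to cell death in hypoxia, was at 25.6, 27.3 and 29.8 FPKM in G, against 22.0, 27.2 and 25.5 FPKM in A, with overlap and a limma adjusted p of 0.473.

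The enzymes of collagen modification and disulfide formation were the largest role. All 7 were above 0 and 6 stood at an unadjusted p under 0.05, against 55.1% and 17.3% of all tested genes. ERO1A (chromosome 14, 52639915 to 52695900), the oxidase that recharges protein disulfide isomerase in the endoplasmic reticulum, was at 41.4, 39.1 and 41.4 FPKM in G, against 30.2, 30.6 and 30.6 FPKM in A. The A libraries had a coefficient of variation of 0.68%, and the lowest G library lay above all of them. ERO1A had a log2 change of 0.40 ± 0.047 (SE). Its limma adjusted p of 0.0686 missed the threshold, and it was 0.0306 with equal sums of FPKM, a scaling that also gave a median over all tested genes of 0.11.

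P4HA1 (chromosome 10, 73007217 to 73096974), an alpha subunit of the collagen prolyl hydroxylase, was at 72.8, 66.4 and 70.4 FPKM in G, against 56.1, 55.9 and 57.5 FPKM in A (log2 change 0.30, limma adjusted p = 0.146). P4HA2, the alternative alpha subunit, was much lower in level, at 5.71, 5.38 and 5.57 FPKM in G, against 4.90, 4.48 and 4.58 FPKM in A (log2 change 0.21, adjusted p = 0.203). Every G library was above every A library for both subunits.

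The collagen lysyl hydroxylases differed in their values. PLOD2, the form that acts on the telopeptides, was at 40.6, 30.8 and 37.4 FPKM in G, against 29.5, 24.9 and 31.4 FPKM in A (log2 change 0.33, limma adjusted p = 0.268), and the groups overlapped. PLOD1 was at 16.2, 16.2 and 15.9 FPKM in G, against 16.2, 14.9 and 14.7 FPKM in A (log2 change 0.08). Whether the 2 genes differ in their change was not tested.

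LOX and LOXL2 cross-link collagen outside the cell. LOXL2 was at 32.0, 36.6 and 31.1 FPKM in G, against 28.2, 26.6 and 25.6 FPKM in A (log2 change 0.30, adjusted p = 0.186). LOX was at 1.2, 1.04 and 1.14 FPKM in G, against 0.878, 0.775 and 0.865 FPKM in A, and its unadjusted p of 0.0443 stood at 0.05 or above in 13 of 16 alternative settings. Both genes were without overlap between the groups.

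The lipid, sterol and glycogen genes pointed in different directions. HILPDA (chromosome 7, 128455849 to 128458418), a lipid droplet protein that inhibits adipose triglyceride lipase, was at 32.6, 33.5 and 32.9 FPKM in G, against 24.3, 22.1 and 20.1 FPKM in A. Its log2 change of 0.56 ± 0.074 (SE) was the highest of the 37 genes (limma adjusted p = 0.107), and the groups were clearly separate. GBE1, the glycogen branching enzyme, was at 6.94, 6.71 and 7.90 FPKM in G, against 6.16, 5.57 and 6.87 FPKM in A, with overlap. PPP1R3C, which directs a phosphatase to glycogen, averaged 0.99 FPKM in G and 0.70 FPKM in A and was not tested.

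INSIG2 (chromosome 2, 118088452 to 118110997), which holds the sterol sensor SCAP in the endoplasmic reticulum, was the gene with the lowest log2 change. It was at 12.4, 19.8 and 10.5 FPKM in G, against 17.2, 26.8 and 27.5 FPKM in A, so that G replicate 2 lay above A replicate 1. The log2 change was -0.72 ± 0.27 (SE; limma adjusted p = 0.254). The unadjusted p was between 0.0939 and 0.0993 when A replicate 2, A replicate 3, G replicate 1 or G replicate 3 was left out.

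Among the transcription regulators, BHLHE40 (chromosome 3, 4979116 to 4985323), a repressor also known as DEC1, was at 88.7, 90.4 and 93.1 FPKM in G, against 76.7, 71.8 and 73.9 FPKM in A. The log2 change was 0.29 ± 0.047 (SE; limma adjusted p = 0.146), with separate groups. ANKRD37, an ankyrin repeat protein, was at 3.52, 3.59 and 3.95 FPKM in G, against 2.10, 2.91 and 3.03 FPKM in A (log2 change 0.36, adjusted p = 0.223). It shares 909 exon bases with UFSP2 on the opposite strand.

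The paralog BHLHE41 had overlapping values, 18.7, 17.1 and 17.8 FPKM in G and 16.3, 15.9 and 17.7 FPKM in A. CITED2, which competes with HIF for the coactivators CREBBP and EP300, averaged 63.4 ± 1.64 FPKM in G and 62.4 ± 3.45 FPKM in A (SD, n = 3), and its log2 change of 0.02 had an interval of -0.11 to 0.16. RORA, a nuclear receptor, was at 0.253, 0.347 and 0.323 FPKM in G, against 0.146, 0.175 and 0.173 FPKM in A. It was not tested for its low level, although the authors' deposited table gives it a p of 0.0109 and a q of 0.58.

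DDIT4, NDRG1 and MIF were the most abundant of the 40 genes. DDIT4 (chromosome 10, 72273924 to 72276036), an inhibitor of mTOR signalling, was at 242.3, 256.7 and 246.9 FPKM in G, against 193.6, 212.1 and 205.9 FPKM in A (log2 change 0.29, limma adjusted p = 0.148). NDRG1 (chromosome 8, 133237171 to 133302022), a stress-response protein, was at 158.7, 149.0 and 157.7 FPKM in G, against 131.2, 128.2 and 128.1 FPKM in A (log2 change 0.26, adjusted p = 0.146). Both had separate groups. DDIT4 reached a limma adjusted p of 0.0425 with quantile normalization, the one setting in which it passed.

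WSB1, a substrate receptor of a ubiquitin ligase, was at 11.3, 13.0 and 13.3 FPKM in G, against 10.2, 9.51 and 9.76 FPKM in A (log2 change 0.32, adjusted p = 0.182). MIF (chromosome 22, 23894383 to 23895227), a cytokine with a very short gene, was the most abundant of the 40, at 280.3, 348.7 and 293.1 FPKM in G, against 342.6, 441.2 and 411.7 FPKM in A. The groups overlapped at G replicate 2 and A replicate 1. The log2 change was -0.37 ± 0.12 (SE; limma adjusted p = 0.22), and the unadjusted p was between 0.0583 and 0.0647 when A replicate 2, A replicate 3, G replicate 1 or G replicate 3 was left out. MIF shares 687 exon bases with the antisense gene MIF-AS1, and the strand setting of the counting is not given in the sources used here.

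In the authors' deposited table, which also sets G over A, 8 of the 37 tested genes had a p under 0.05, against 5.08% of all tested genes, and none had a q under 0.05, against 0.266%. The 8 were PDK1, PDK3, AK4, ERO1A, HILPDA, WSB1, INSIG2 and MIF.

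Isoforms were read from 109 tested transcripts of the 37 genes, within a fit of 29990 transcripts. None passed the adjusted threshold, which 0.147% of all transcripts passed, and the smallest adjusted p was 0.273, for the main ERO1A transcript. At an unadjusted p under 0.05 stood 22 transcripts (20.2%, against 7.81% of all), 19 higher and 3 lower in G. For 18 genes the most abundant transcript held over 90% of the gene's fragments, so that the gene and the transcript give nearly the same comparison. Transcript FPKM can exceed gene FPKM because each is divided by its own length. The most abundant transcript was annotated as a retained intron for VEGFA (59.3% of the gene's fragments) and WSB1 (62.4%). For NDRG1 it was annotated as a processed transcript (29.1%), and a retained-intron transcript held a further 40.4%. The gene values of VEGFA, WSB1 and NDRG1 thus include much RNA that is not annotated as protein-coding.

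Transcripts of ADM, of SLC16A3 and of PDK1 differed in direction within the gene, and INSIG2 and FAM162A were among other genes where they did so. The main PDK1 transcript (log2 change 0.47) was near the PDK1 gene (0.39). The main ADM transcript ENST00000278175 was at 53.6, 36.5 and 61.2 FPKM in G, against 29, 17.8 and 12.9 FPKM in A (log2 change 1.34, limma adjusted p = 0.489). A longer ADM transcript, ENST00000534464, was at 15.0, 5.22 and 5.17 FPKM in G, against 23.6, 22.6 and 15.8 FPKM in A (log2 change -1.33, adjusted p = 0.574). The main transcript held 71.4%, 46.9% and 82.0% of the ADM fragments in G, against 46.4%, 24.5% and 18.2% in A, while the log2 change of the ADM gene was 0.14.

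The main SLC16A3 transcript ENST00000582743 held 39.1%, 83.4% and 13.1% of that gene's fragments in G, against 88.7%, 90.2% and 93.4% in A. The longer ENST00000581287 was at 10.1, 3.45 and 15.9 FPKM in G, against 2.05, 1.57 and 1.22 FPKM in A (log2 change 1.86, limma adjusted p = 0.522). The G libraries varied widely among themselves. They did not overlap the A libraries in the share of the main transcript or in the FPKM of the longer one. The FPKM of the main transcript did overlap, at 18.5, 53.8 and 6.88 in G, against 46.7, 61.4 and 61.9 in A (log2 change -1.49). PDK1 transcript ENST00000282077 was at 4.19, 4.21 and 4.26 FPKM in G, against 2.98, 2.64 and 2.72 FPKM in A. The shorter ENST00000410055 overlapped, with a log2 change of -0.12. The second transcripts of these 3 genes were chosen after their values were seen.

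Some main transcripts had no estimate in 1 library. ENST00000323441 of HIF1A was at 9.06, 8.36 and 0.0001 FPKM in G, against 8.58, 8.78 and 8.62 FPKM in A, where 0.0001 stands for no estimate. ENST00000245787 of INSIG2 was at 11.5, 20.7 and 0.0001 FPKM in G, against 18.0, 28.4 and 29.7 FPKM in A, and the shorter ENST00000614681 was at 28.3 FPKM in G replicate 3. Both cases were in G replicate 3, and the HIF1A gene value of that library, 13.7 FPKM, lay among the others. The INSIG2 gene value of that library, 10.5 FPKM, was instead the lowest of all libraries. The part of the missing estimate in that value was not tested.

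**Figure D4:**
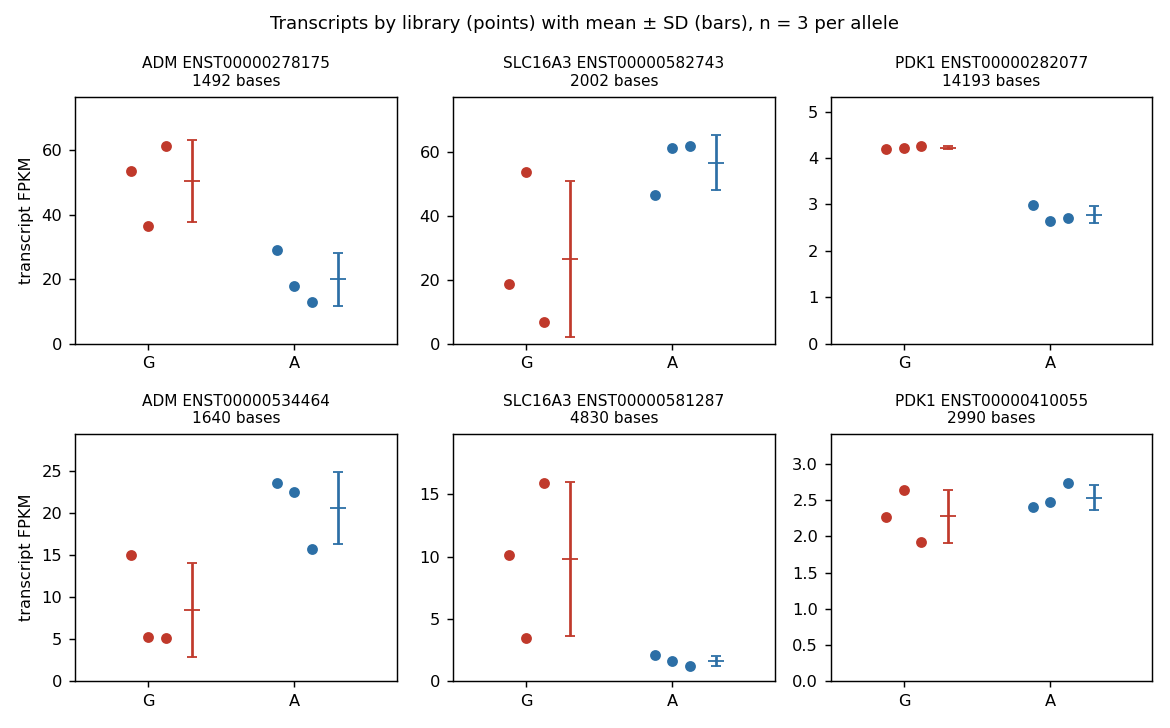
Transcript FPKM per library (points) with the mean ± SD of 3 libraries per allele (bars), G left of A, for the main transcript (top) and another transcript (bottom) of ADM, SLC16A3 and PDK1, each panel with its own axis from 0. The main ADM transcript is higher and the other lower in G, and the G libraries of SLC16A3 are spread widely.

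The neighbouring lists gave the setting of these values. Like the 40 genes, they were chosen with earlier results of these data known, so their counts are not independent support. Of 17 other HIF pathway components (among them coactivators, ligase subunits and chaperones), 16 were tested. A log2 change above 0 was found for 8, against 55.1% of all tested genes, with a median of 0.01. Under an unadjusted p of 0.05 were ARNT2, an ARNT paralog, at 4.18 ± 0.16 FPKM in G and 3.25 ± 0.055 FPKM in A, and ELOB, an elongin of the VHL complex, at 89.4 ± 2.89 FPKM in G and 107.7 ± 8.98 FPKM in A (SD, n = 3). That is 1 gene higher and 1 lower, with limma adjusted p-values of 0.165 and 0.191. Together they are 12.5% of the tested genes of this list, below the 17.3% of all tested genes.

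Of 38 other hypoxia targets outside glycolysis, 31 were tested, and 28 had a log2 change above 0, against 55.1% of all tested genes. The median was 0.16. At an unadjusted p under 0.05 stood 14 (45.2%), all higher in G, against 10.5% of all tested genes under it as higher. Among those with the smallest p were PLIN2, a lipid droplet coat protein, at 28.2 ± 0.46 FPKM in G and 22.4 ± 0.15 FPKM in A, and STC1, a secreted glycoprotein, at 6.77 ± 0.26 FPKM in G and 5.28 ± 0.27 FPKM in A (SD, n = 3). Their limma adjusted p-values were 0.12 and 0.162. None of this list passed the adjusted threshold.

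Of 20 glycolytic hypoxia targets, all were tested, and 16 had a log2 change above 0, against 55.1% of all tested genes. The median was 0.10. At an unadjusted p under 0.05 stood 7 (35.0%), all higher in G, against 10.5% of all tested genes under it as higher. HK2, a hexokinase, was the only gene of these lists that rose past the adjusted threshold, at 38.7, 37.5 and 38.7 FPKM in G, against 26.6, 25.1 and 25.6 FPKM in A (log2 change 0.55, limma adjusted p = 0.0257). HK2 was called in 9 of 17 alternative settings. It was not called when A replicate 2 or 3 or any G replicate was left out (limma adjusted p of 0.084 to 0.141). Nor was it called without a filter (0.0722), without a variance trend (0.0735) or with the replicate block (0.261). The differences between these lists and the 40 genes were not tested.

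**Figure D5:**
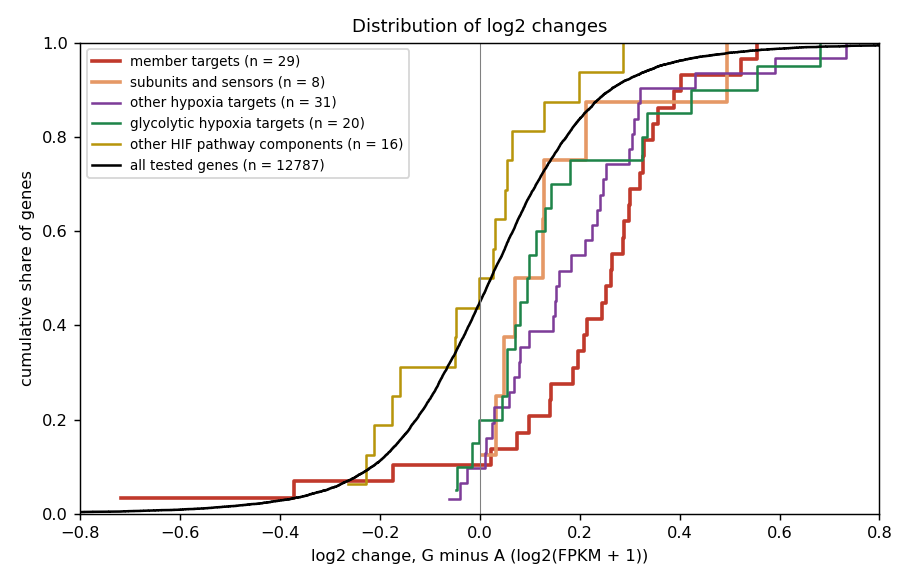
Cumulative share of genes (vertical axis, 0 to 1) by log2 change (G minus A, on log2(FPKM + 1)) for the 29 tested targets, the 8 subunits and sensors, 3 neighbouring lists and all 12787 tested genes, with the horizontal axis limited to 0.8 in either direction. The curves of the targets and of the other hypoxia targets lie right of the curve of all genes over most of the range, and that of the other HIF pathway components crosses it.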

How the data were processed

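Expression was taken from 2 deposited tables covering 6 libraries. The submitters' processing notes list HISAT2 2.0.4, StringTie 1.3.4d and cutadapt 1.9, without their settings. The authors deposited FPKM per gene and per transcript. Per the file headers, each row further gives the fold of G over A, that fold as log2, and the p-value and q-value of a test by the authors, the kind of which is not given in the sources used here. The notes name a mouse build, but identifiers are human, and 94.6% of the 206348 transcripts matched to GENCODE 29 lay at its GRCh38 coordinates. Per the labels' protocols, libraries were stranded by dUTP. A value of 0.0001 stands for no estimate. Depth is unknown: 32.1% to 41.0% of low values were whole multiples of a fragment step within 0.02, so no count model was used.

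Values were tested as log2(FPKM + 1) with limma 3.58.1 (limma-trend, R 4.3.3), G minus A, where 3 or more of the 6 libraries had 1 FPKM or above, with Benjamini-Hochberg adjustment over all of them. The fit was tested on simulated data. Tables were handled with Python 3.11.15 and pandas 2.3.3. Members, lists and roles were chosen with earlier results of these data known. Every tested gene of the 40 could be named; from the other lists, genes with an unadjusted p under 0.05, the 3 smallest per direction, of which 1 is not reported here; per gene, the most abundant transcript; and the promoters of the 5 smallest p outside chromosome 8 among genes with a promoter entry. Alternatives changed the pseudocount, filter, scaling, variance trend, replicate block and the libraries used. Fragments shared with overlapping genes cannot be assigned. The labels do not say whether replicates were separate cultures, so the spread behind each p-value may be purely technical.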

Additional observations from a re-analysis of the deposited data

How the results depend on the processing

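Counts of called genes depended on the settings. The 14 called genes became 1 without a filter, 6 with quantile normalization, 4 without a variance trend, 9 with nuclear fragments only (chosen after seeing the data) and 5 to 20 with 1 library left out. Called members of the HIF list were 0, against 1 with equal sums of FPKM (ERO1A) and 1 with quantile normalization (DDIT4). Members at an unadjusted p under 0.05 were 21, against 15 to 21 with 1 library left out (15 without G replicate 3) and 27, all higher, with equal sums. The share of all tested genes under 0.05 moved too, and applies to every list here. It was 17.3%, against 11.1% to 21.2% with 1 library left out and 15.8% with quantile normalization. With equal sums it was 24.5%, and 22.3% of all tested genes were under 0.05 as higher in G. Of the 21, 15 stayed under 0.05 in all 17 alternatives, and the lower ones, INSIG2 and MIF, in 12 of 17 each. The members' median of 0.21 was 0.26 with a pseudocount of 0.1, 0.26 with 0.01, 0.30 with equal sums (all genes 0.11) and 0.22 to 0.23 with 1 library left out. Other HIF components at p under 0.05 were 2, against 4 with equal sums, 4 with quantile normalization and 2 to 6 with 1 library left out (6 without A replicate 1, 4 without G replicate 1). Other targets were 14, against 22 with equal sums and 9 to 13 with 1 library left out (9 without G replicate 3). Glycolytic targets were 7, against 13 with equal sums and 12 with quantile normalization. Called transcripts were 44, against 23 and 0 with pseudocounts of 0.1 and 0.01, 7 without a filter, 2 with 1 FPKM in all 6 libraries and 7 to 37 with 1 library left out. The log2 change of HIF1A, 0.00, was -0.017 with median-ratio factors, -0.011 with nuclear fragments and -0.041 to 0.049 with 1 library left out. That of EGLN3, 0.03, was -0.16 to 0.13, and that of CITED2, 0.02, was -0.011 to 0.065 with 1 library left out and -0.00074 with median-ratio factors. Summing genes that overlap on the same strand changed no call. In deviations from the group means, libraries with the same replicate number correlated at 0.073, 0.015 and 0.040. Those with different numbers correlated at -0.056 to 0.016. With 3 libraries per allele, these values cannot settle whether the numbers pair the samples. With the replicate block, 0 genes and 0 transcripts were called. There, 21 members stood at an unadjusted p under 0.05, against 16.8% of all tested genes. The causes were not tested. Depth is unknown, and 3 libraries per allele limit what the adjusted test can call.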
